A study of Mus musculus with 6 samples.

Results

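The imprinted genes of the Peg3 domain, on proximal mouse chromosome 7, and of the Snrpn-Ube3a domain, on its central part, were examined in embryonic stem cells that lack both genes of glycogen synthase kinase-3. The 10 genes were taken by name: Peg3, Usp29 and Zim1 from the Peg3 domain, and Snrpn, Ndn, Magel2, Mkrn3, Peg12, Ube3a and Atp10a from the Snrpn-Ube3a domain. A probe set was included where the platform annotation assigned it to exactly 1 gene and that gene was among the 10, which gave 30 of 45101 probe sets. The study compared Gsk-3a-/-; Gsk-3b-/- cells (DKO, 3 arrays) with wild-type (E14K) cells (WT, 3 arrays) on Affymetrix expression arrays. Both genotypes were feeder-free cultures on gelatin with 15% serum and leukaemia inhibitory factor at 1000 units/ml, and 25 ng of total RNA was amplified for each array. Nothing in the labels tells if replicates came from separate cultures or if the DKO cells were a single clone, so each p-value covers only the spread among these arrays, part of which may be technical. Differences between cell lines that have nothing to do with Gsk-3 cannot be told apart from those of its loss.

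In an imprinted domain, genes are transcribed from the copy inherited from 1 parent, under a control region that carries DNA methylation from 1 germ line. The Peg3 domain is controlled by the promoter region that Peg3 and Usp29 share head to head, and the Snrpn-Ube3a domain by the region around the first exon of Snurf-Snrpn; both are methylated on the maternal copy. Peg3, Usp29, Snrpn, Ndn, Magel2, Mkrn3 and Peg12 are read from the paternal copy. Zim1 is read from the maternal copy, Atp10a has been described as maternal in some tissues and strains, and Ube3a is maternal in neurons and biallelic in most other cells. In humans, loss of the paternal genes of the Snrpn domain causes Prader-Willi syndrome and loss of maternal UBE3A causes Angelman syndrome. DNA methylation and parental origin were not measured on these arrays, which report total transcript.

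Promoter windows of 4 genes are shown: Peg3 and Atp10a, which passed the test described below, and Snrpn and Ndn, which did not. Of the 4 tested probe sets annotated jointly to Snurf and Snrpn, 3 passed. Methylation falls on CpG dinucleotides, which stand in capitals. Each window runs from 250 bases before to 50 bases after a gene start in RefSeq (GRCm38.p6), written 5′ to 3′ on the gene's strand. All 10 genes had a window. The Peg3 window lies at chr7:6730370-6730669 on the minus strand and overlaps the Usp29 window, on the plus strand, by 263 bases. Snrpn has 4 windows, and the one shown is the start that it shares with Snurf, at chr7:60005150-60005449 on the minus strand. The Ndn window lies at chr7:62348027-62348326 and the Atp10a window at chr7:58657952-58658251, both on the plus strand.
Peg3: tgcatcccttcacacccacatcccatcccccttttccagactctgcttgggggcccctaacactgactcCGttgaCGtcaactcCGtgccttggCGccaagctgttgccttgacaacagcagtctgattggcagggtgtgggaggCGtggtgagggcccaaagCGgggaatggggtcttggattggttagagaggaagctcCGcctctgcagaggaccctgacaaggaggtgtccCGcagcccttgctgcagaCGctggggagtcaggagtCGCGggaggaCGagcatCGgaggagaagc
Snrpn: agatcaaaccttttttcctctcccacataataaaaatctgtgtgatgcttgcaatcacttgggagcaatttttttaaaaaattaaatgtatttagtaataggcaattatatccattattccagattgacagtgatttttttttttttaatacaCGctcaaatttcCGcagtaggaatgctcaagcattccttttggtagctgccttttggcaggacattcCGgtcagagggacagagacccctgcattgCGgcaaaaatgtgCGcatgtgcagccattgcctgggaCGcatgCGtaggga
Ndn: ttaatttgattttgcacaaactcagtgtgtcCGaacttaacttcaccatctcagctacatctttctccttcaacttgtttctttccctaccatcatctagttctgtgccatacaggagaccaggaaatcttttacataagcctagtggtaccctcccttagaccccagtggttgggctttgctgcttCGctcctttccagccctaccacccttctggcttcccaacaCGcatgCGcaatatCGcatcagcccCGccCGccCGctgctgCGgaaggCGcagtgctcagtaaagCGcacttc
Atp10a: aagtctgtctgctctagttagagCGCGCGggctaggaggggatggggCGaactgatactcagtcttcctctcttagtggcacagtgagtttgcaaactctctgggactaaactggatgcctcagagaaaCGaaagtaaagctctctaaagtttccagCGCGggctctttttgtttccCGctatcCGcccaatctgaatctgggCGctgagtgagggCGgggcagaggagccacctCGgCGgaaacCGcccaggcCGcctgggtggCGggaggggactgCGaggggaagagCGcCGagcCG

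The Peg3 window held 13 CpG dinucleotides, the Snrpn window 7, the Ndn window 11 and the Atp10a window 20, where the median over 32851 windows was 7. At least as many were found in 37.9% of all windows for Peg3, 52.1% for Snrpn, 41.4% for Ndn and 26.5% for Atp10a. Ube3a had the most CpG dinucleotides of the 10 genes, 29, a number reached by 12.9% of windows. The hexamer TGCCGC, the core bound by the imprint-protecting zinc-finger protein Zfp57 when methylated, was searched on both strands. It was present once in the Snrpn window and once in the Zim1 window, absent from the other windows of the 10 genes, and present in 11.6% of all windows. Such a match is a description of letters and not of binding.

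The cells carried the markers of their label, 10 embryonic stem cell markers (Pou5f1, Sox2, Nanog and others). Their summed intensity was 25563 to 28495 in DKO and 27793 to 29370 in WT. All 10 were tested, and limma called 0 of them in DKO against WT. Of the 10, 0 had an unadjusted p under 0.05 and 0 passed with the replicate number as a block. By limma, 2.5% of all tested genes fell and 1.64% rose. Over all tested genes 14.7% had an unadjusted p under 0.05, and with the block 5.63% fell and 5.07% rose. Among 12 neuronal markers, Dcx, Rbfox3 and Syt1 were under the filter on every array and 6 were tested. The summed intensity of all 12 was 3544 to 5745 in DKO and 3029 to 3344 in WT. The 6 tested had a median log2 difference of -1.06, or -0.81 with means under the filter set to it. The brightest of the 6 were Stmn2, named after its values were seen (log2 difference 0.28), and Nefl, both higher on average in DKO, while 4 of the 6 were below 0. Of the 6, 1 fell (Gap43) and 5 did not pass. There were 4 at an unadjusted p under 0.05, and 4 lower and 1 higher under the block. Gap43, a growth-cone protein, passed the filter through the WT arrays alone, so a difference was built into its selection: its mean log2 intensity was 2.30, under the filter, in DKO and 4.79 in WT (adjusted p = 0.00968, but 0.0652 without DKO replicate 1). The neurofilament gene Nefl, named after its values were seen, was higher on every DKO array (log2 difference 1.29, adjusted p = 0.149, or 0.00578 with the block). Among 11 fibroblast markers, Col3a1, Lum and Postn were under the filter on every array, and the sum was 374 to 643 in DKO and 351 to 658 in WT. Of the 5 tested limma called 0, with 2 at an unadjusted p under 0.05, and 1 lower and 1 higher under the block. The 9 primitive endoderm markers summed to 3504, 3127 and 5796 in DKO replicates 1 to 3, against 4944, 4536 and 1481 in WT. The sum was thus lower in DKO in replicates 1 and 2 and higher in replicate 3. All 9 were tested and limma called 0, with 3 at an unadjusted p under 0.05 and 0 under the block. The 10 trophoblast markers summed to 5122 to 7954 in DKO and 4371 to 7890 in WT. Of 5 tested trophoblast markers 1 rose, Cdx2, also a Wnt target, and 4 did not pass. There were 3 at an unadjusted p under 0.05, and 2 higher and 0 lower under the block. Named after their values were seen, Eomes had a log2 difference of 1.24, Krt8 of 0.27, Krt18 of -0.20 and Tfap2c of -0.89. The part of any such cells in the results below was not tested, and in bulk RNA fewer cells of a type and less RNA per cell cannot be told apart.

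The arrays themselves also differed. Replicate 3 of both genotypes stood apart in its 18 spike-in controls, with a mean log2 signal of 9.84 in DKO and 10.2 in WT, against 1.68 to 1.83 on the other 4 arrays, and differences are therefore also given within replicates 1 and 2 and within replicate 3. For Gapdh and Actb, the log2 ratio of 3′ to 5′ probe sets, a sign of RNA length, was higher in DKO in each same-numbered pair, by 0.06, 0.38 and 0.19 log2 units. Its part in the results was not tested. Of the targeted genes, Gsk3a (1435638_at) read 145, 135 and 66 in DKO, against 403, 238 and 239 in WT, lower on every array (limma adjusted p = 0.0942, or 0.00646 with replicate numbers blocked). The 5 tested probe sets of Gsk3b overlapped between the genotypes, with log2 differences of -0.71 to -0.02, and its brightest, 1454958_at, read 1122, 1495 and 1472 in DKO, against 1481, 1547 and 1655 in WT. Whether these probes lie in the deleted parts was not known here, so Gsk3b does not check the labels.

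Each probe set was read as log2 of the deposited intensity and compared by limma, with Benjamini-Hochberg adjustment over 20841 tested probe sets. A probe set was tested where its log2 value was at least 4, an intensity of 16, on at least 3 arrays. Of the 30 probe sets 20 were tested, representing 7 genes. The other 10 were under an intensity of 16 on every array, and they hold all probe sets of Usp29, Zim1 and Magel2. Of the 20, 3 passed the filter through the WT arrays alone, so a difference in them was built into their selection.

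Peg3 and Atp10a fell in DKO on every probe set tested, by 3.51-fold on the brightest of Peg3 and 6.38-fold on the brightest of Atp10a, and they were the only 2 of the 7 tested genes with a call. Ndn, Snrpn, Mkrn3 and Peg12 were lower on average in DKO without passing the test, and the groups overlapped on all probe sets of Ube3a. Snrpn was represented by 1 dim probe set alone. Of the 4 tested probe sets annotated jointly to Snurf and Snrpn, which are not among the 20, 3 fell. In all, 6 of the 20 probe sets fell, 0 rose and 14 did not pass, but 3 of these 6 are the ones that passed the filter through the WT arrays alone. Of the other 17 probe sets 3 fell, 1 of Peg3 and 2 of Atp10a. Over all tested probe sets, which hold such selected ones too, 1.93% fell and 1.31% rose. Over all tested genes 2.5% fell and 1.64% rose. All DKO arrays lay under all WT arrays in 10 of the 20 probe sets, against 9.17% of all tested probe sets. Several of the 20 read the same gene. On the brightest probe set of each gene this held for 3 of 7 genes, against 1089 of 10496 tested genes. The median log2 difference was -0.74 over the 20 (-0.68 with means under the filter set to it) and -0.02 over all tested probe sets, and 19 of the 20 were below 0. In the fit blocked on replicate number, which takes out what same-numbered arrays share, 9 of the 20 fell, against 5.26% of all tested probe sets. On the brightest probe set of each gene 3 of 7 fell with this block, against 5.63% of all tested genes. The 3 probe sets that passed the filter through the WT arrays alone are among the 10, the 19 and the 9. In them a difference was built in.

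**Figure D1:**
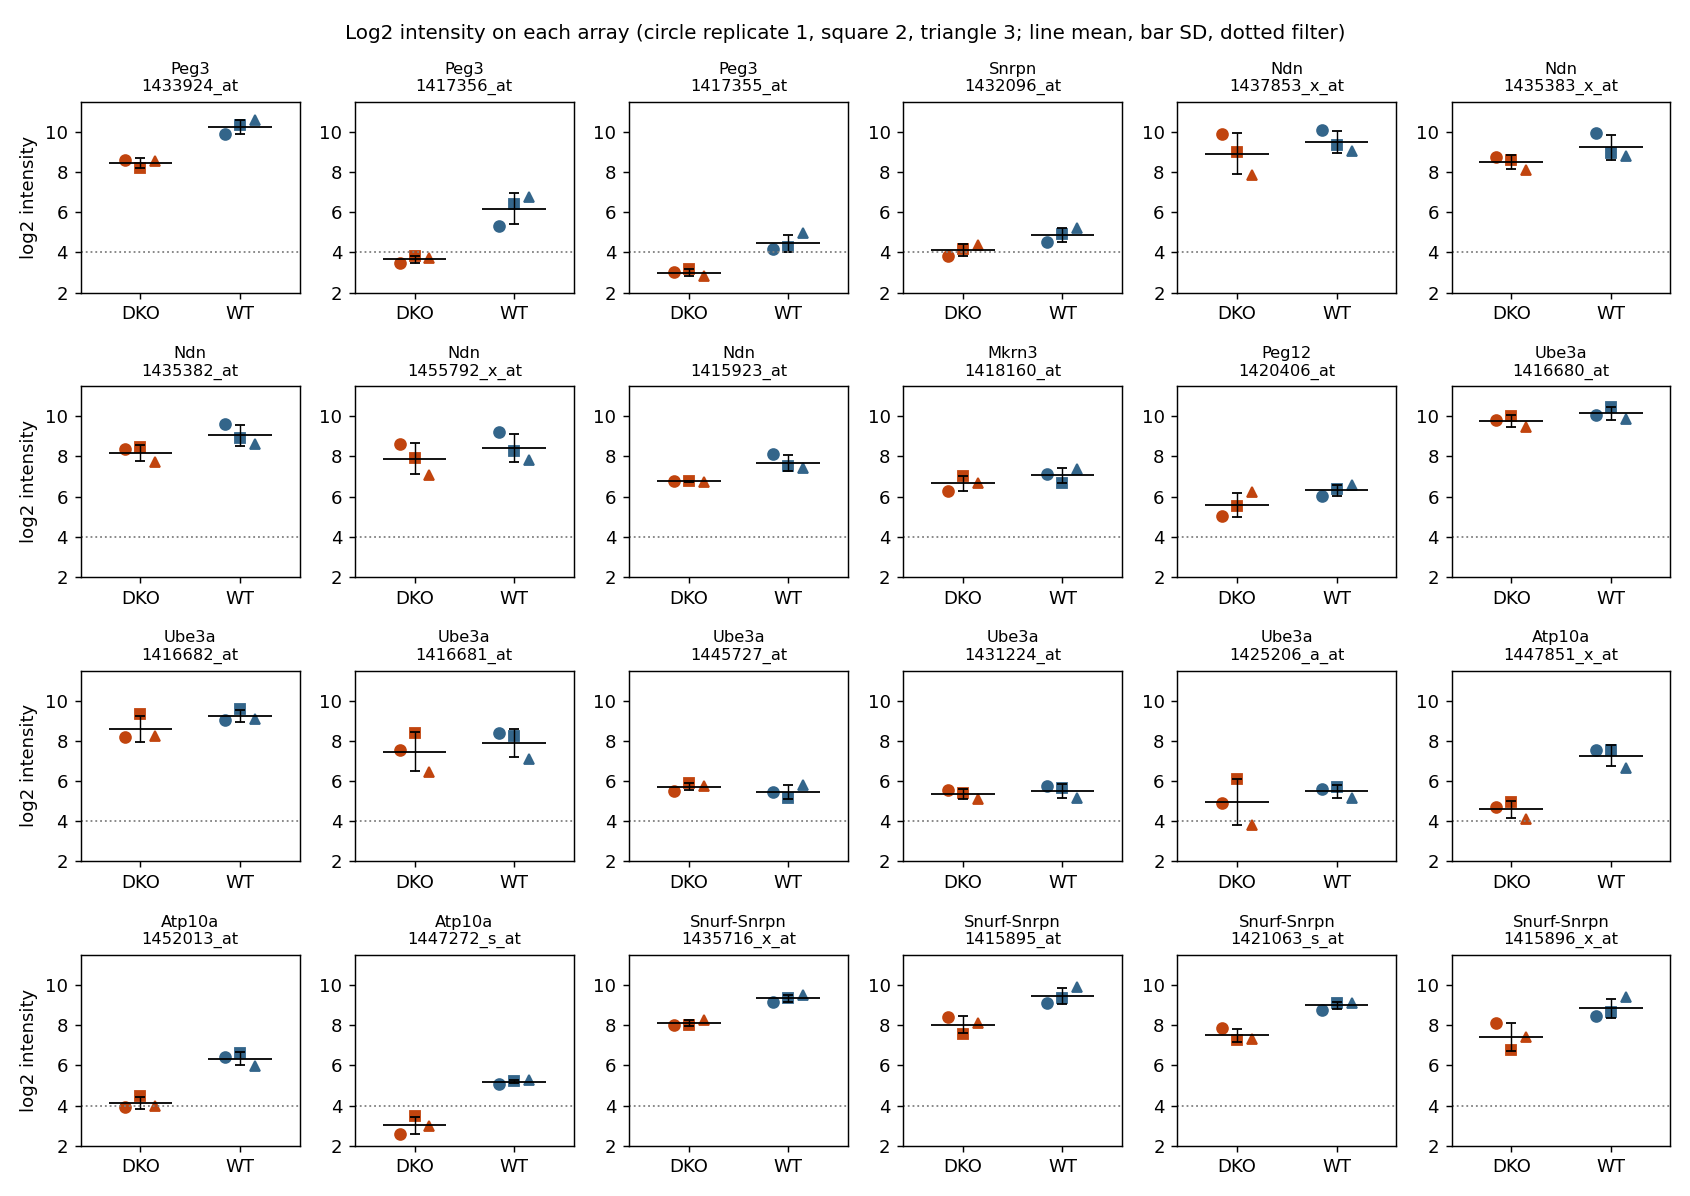
Log2 intensity (y axis) on each array for the 20 tested probe sets of the 10 genes and the 4 tested probe sets annotated jointly to Snurf and Snrpn; DKO is on the left and WT on the right of each panel, symbols mark replicates 1 to 3, lines are means, bars SD, and the dotted line is the filter at 4. The 3 DKO points lie under the 3 WT points in every panel of Peg3, Atp10a and Snurf-Snrpn, while those of Ube3a and Mkrn3 overlap.

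Peg3, a zinc-finger protein known in mice for roles in growth and maternal behaviour, had 5 probe sets, of which 3 were tested. On the brightest, 1433924_at, the intensity was 395, 293 and 374 in DKO, against 949, 1292 and 1524 in WT. No DKO array came near any WT array: the highest DKO value was less than the lowest WT value by a wide margin. The mean log2 intensity was 8.46 ± 0.23 in DKO and 10.27 ± 0.35 in WT (SD, n = 3 each), a log2 difference of -1.81 (SE 0.27, 95% interval -2.41 to -1.21, limma adjusted p = 0.00705), or 3.51-fold lower in DKO. The difference was -1.70 within replicates 1 and 2 and -2.03 within replicate 3, and it passed each of 6 fits with a single array left out (highest adjusted p = 0.0411). With no filter on dim probe sets, and so more of them in the adjustment, none of the 3 Peg3 probe sets passed: adjusted p was 0.0517 here, 0.107 on 1417356_at and 0.117 on 1417355_at.

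The other probe sets of Peg3 were dim in DKO. On 1417356_at the intensity was 11, 14 and 13 in DKO, against 40, 86 and 110 in WT, at least 4.52-fold lower (adjusted p = 0.00689). This call was lost without DKO replicate 1 (adjusted p = 0.0737). On 1417355_at it was 8, 9 and 7 in DKO, against 18, 19 and 31 in WT, at least 1.37-fold lower (adjusted p = 0.0241). With single arrays left out it passed only without WT replicate 1 (adjusted p = 0.0333 to 0.113 over 6 fits), and within replicates 1 and 2 it had adjusted p = 0.117. Both passed the filter through the WT arrays alone. The remaining probe sets of Peg3, 1447731_at and 1447732_x_at, read 2 to 3 on every array.

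Usp29, a ubiquitin-specific protease whose first exon lies beside that of Peg3, gave no level in either genotype. Its probe set 1427551_at read 4, 5 and 4 in DKO and 6, 7 and 9 in WT, and 1419237_at read 7, 4 and 4 in DKO and 4 in each WT array. Zim1, an imprinted zinc-finger gene on the other side of Peg3, read 3, 4 and 4 in DKO and 4, 4 and 3 in WT. All of these lie under the filter at 16, where values carry no order, so neither gene could be compared.

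Atp10a, a P4-type ATPase that moves phospholipids across membranes, had 4 probe sets, of which 3 were tested and all 3 fell. On 1447851_x_at the intensity was 26, 31 and 17 in DKO, against 189, 186 and 101 in WT. The mean log2 intensity was 4.58 ± 0.45 in DKO and 7.25 ± 0.52 in WT (SD, n = 3 each), a difference of -2.67 (SE 0.34, 95% interval -3.44 to -1.91, limma adjusted p = 0.00322), or 6.38-fold lower in DKO. With no filter on dim probe sets this one did not pass (adjusted p = 0.0666), while the other tested Atp10a probe sets did (0.0345 and 0.0384).

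On 1452013_at the Atp10a intensity was 15, 22 and 16 in DKO, against 85, 97 and 63 in WT (log2 difference -2.21, adjusted p = 0.0027). On 1447272_s_at it was 6, 11 and 8 in DKO, against 34, 37 and 38 in WT, at least 2.27-fold lower (adjusted p = 0.00317); this probe set passed the filter through the WT arrays alone. The DKO arrays thus stood at or near the filter on all 3 probe sets, and the groups did not overlap on any of them. Within replicates 1 and 2 the 3 differences were -2.72, -2.32 and -2.13, and within replicate 3 they were -2.57, -1.98 and -2.25. Each passed with any single array left out (highest adjusted p = 0.0382). The fourth probe set, 1447273_x_at, read 3 to 4 in DKO and 4 to 5 in WT.

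**Figure D2:**
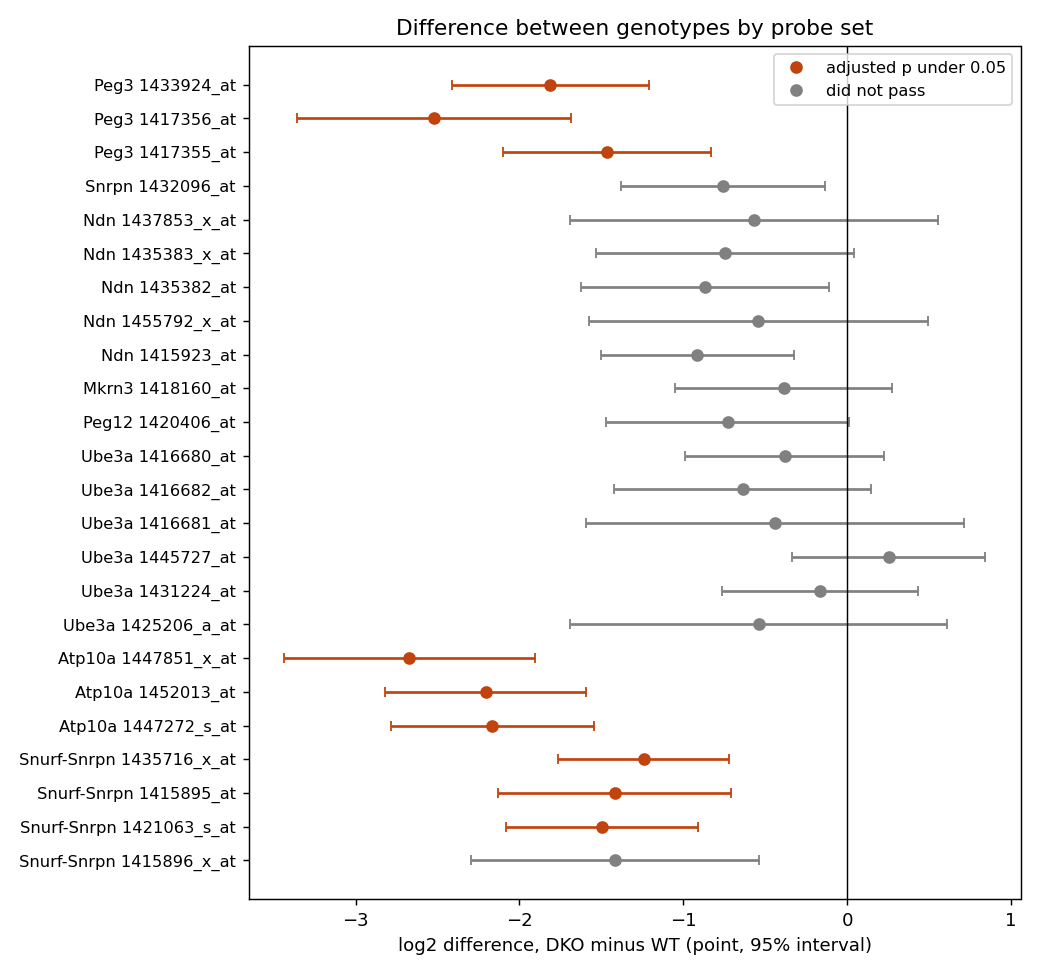
Log2 difference, DKO minus WT (x axis), with its 95% interval for the 20 tested probe sets of the 10 genes and the 4 tested joint Snurf-Snrpn probe sets; coloured points passed an adjusted p of 0.05. The intervals of Peg3 and Atp10a end at -0.83 or lower, those of Ndn and Ube3a mostly cross 0, and the joint Snurf-Snrpn differences lie between -1.50 and -1.24.

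Snrpn encodes SmN, a core protein of the spliceosome, from a transcript that also encodes the small protein Snurf. By the rule of 1 gene per probe set it was represented by 1432096_at alone, a dim probe set that read 14, 18 and 21 in DKO, against 23, 30 and 37 in WT. The groups did not overlap, and the log2 difference of -0.76 (SE 0.28, 95% interval -1.38 to -0.13) did not pass (limma adjusted p = 0.253, or 0.0438 with the replicate block). It was -0.73 within replicates 1 and 2 and -0.82 within replicate 3.

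The array holds 6 further probe sets that are annotated to both Snurf and Snrpn. They cannot tell these genes apart, are assigned to neither, and are described here after their values were seen. Of the 4 that were tested 3 fell and 1 did not pass, and on each of the 4 all DKO arrays lay under all WT arrays, where 1.93% of all tested probe sets fell and 9.17% had such separation. On 1435716_x_at the intensity was 260, 259 and 308 in DKO, against 566, 666 and 728 in WT (log2 difference -1.24, SE 0.23, adjusted p = 0.022). On 1421063_s_at it was 236, 155 and 161 in DKO, against 440, 550 and 545 in WT (log2 difference -1.50, adjusted p = 0.0157).

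On 1415895_at it was 339, 188 and 281 in DKO, against 546, 653 and 961 in WT (log2 difference -1.42, adjusted p = 0.0475). On 1415896_x_at it was 277, 107 and 170 in DKO, against 355, 403 and 669 in WT (log2 difference -1.42, adjusted p = 0.11, or 0.0208 with the replicate block). With the replicate block all 4 fell by limma (adjusted p = 0.00413 to 0.0208), where 5.26% of all tested probe sets fell. The calls made without the block were sensitive to single arrays. With single arrays left out, 1421063_s_at did not pass without DKO replicate 2 or WT replicate 2 (highest adjusted p = 0.0821), 1435716_x_at passed in 2 of 6 (without DKO replicate 3 and without WT replicate 1; highest 0.107) and 1415895_at passed in 1 of 6 (without WT replicate 1; highest 0.163). Within replicates 1 and 2 alone the 4 differences were -1.36, -1.24, -1.24 and -1.14 on 1421063_s_at, 1435716_x_at, 1415895_at and 1415896_x_at, and by limma 0 of the 4 passed there (adjusted p = 0.0908 to 0.346).

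Snhg14 is the long noncoding transcript that begins at Snurf-Snrpn, carries the snoRNA clusters of the domain and runs on as the antisense transcript of Ube3a. It was a listed neighbour and not among the 10 genes, and its brightest probe set, which represents it in the counts, did not pass; all 3 of its probe sets are given here because their values had been seen. On 1455087_at the intensity was 319, 782 and 506 in DKO, against 1260, 1547 and 1322 in WT (log2 difference -1.45, SE 0.33, adjusted p = 0.0555, or 0.00461 with the replicate block). On 1436964_at it was 26, 37 and 34 in DKO, against 137, 171 and 175 in WT (log2 difference -2.32, adjusted p = 0.0014), and this call held with any single array left out (highest 0.0146).

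On 1445296_at the Snhg14 signal was 10, 13 and 5 in DKO, against 32, 53 and 31 in WT, at least 2.34-fold lower (adjusted p = 0.0204; not without DKO replicate 1 or WT replicate 2, highest 0.109). This probe set too passed the filter through the WT arrays alone. On all 3 probe sets of Snhg14 every DKO array lay under every WT array. The strand and position of the probes were not known here, so reads of overlapping transcripts on these probe sets were not examined.

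Ndn encodes necdin, a protein of the MAGE family that restrains proliferation in neurons. Of its 8 probe sets 5 were tested, all 5 were below 0, and by limma 0 passed, with 2 at an unadjusted p under 0.05 and 2 with the replicate block. On 1415923_at the intensity was 111, 109 and 106 in DKO, against 278, 183 and 169 in WT. The DKO arrays were nearly alike and lay under every WT array; the log2 difference of -0.91 (SE 0.26, 95% interval -1.50 to -0.33) had an adjusted p of 0.123, or 0.0303 with the replicate block.

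On 1435382_at the Ndn intensity was 328, 353 and 211 in DKO, against 796, 479 and 388 in WT (log2 difference -0.87, adjusted p = 0.29; 0.0431 with the block). On 1435383_x_at it was 434, 387 and 273 in DKO, against 981, 495 and 445 in WT (log2 difference -0.75, adjusted p = 0.417). On both, WT replicate 1 was far above the other WT arrays, and without it the differences were -0.57 and -0.39. The groups overlapped on the other tested probe sets of Ndn, 1437853_x_at, which read 946, 521 and 230 in DKO against 1089, 645 and 524 in WT, and 1455792_x_at, which read 400, 242 and 137 in DKO against 590, 309 and 224 in WT. Their differences were -0.57 (95% interval -1.69 to 0.56) and -0.54 (95% interval -1.58 to 0.50), and without DKO replicate 3 they were -0.030 and -0.15. The 3 untested probe sets read 2 on every array.

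Magel2, Mkrn3 and Peg12 lie next to Ndn. Magel2, a MAGE protein that works with a ubiquitin ligase in endosomal recycling, read 6, 8 and 6 in DKO and 10, 14 and 13 in WT on its single probe set, under the filter on every array. Mkrn3, a makorin RING-finger ubiquitin ligase known in humans for its role in the timing of puberty, read 78, 132 and 102 in DKO and 142, 101 and 164 in WT. The groups overlapped, and the log2 difference was -0.39 (SE 0.29, 95% interval -1.05 to 0.28, adjusted p = 0.704). It was -0.20 without DKO replicate 1, -0.24 without WT replicate 3, and -0.12 with array weights.

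Peg12, also called Frat3, belongs to the Frat family of Gsk-3-binding proteins. It read 33, 46 and 74 in DKO and 65, 83 and 95 in WT. DKO replicate 3 lay above WT replicate 1, and the log2 difference was -0.73 (SE 0.33, 95% interval -1.47 to 0.01, adjusted p = 0.397). It was -0.91 within replicates 1 and 2 and -0.36 within replicate 3.

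Ube3a, the ubiquitin ligase that lies between Snhg14 and Atp10a, was tested on 6 probe sets. None reached the limma threshold (0 of 6), with 0 at an unadjusted p under 0.05 and 0 with the replicate block. The brightest, 1416680_at, read 888, 1050 and 700 in DKO, against 1074, 1427 and 941 in WT, a log2 difference of -0.38 (SE 0.27, 95% interval -0.99 to 0.23, adjusted p = 0.675). The groups overlapped on all 6 probe sets. Their differences ran from -0.64, on 1416682_at, to 0.25, on 1445727_at, the only one of the 20 tested probe sets above 0, which read 46, 60 and 53 in DKO against 44, 35 and 56 in WT.

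On a pair of Ube3a probe sets the DKO arrays were widely spread. On 1416681_at the intensity was 187, 335 and 88 in DKO, against 336, 299 and 137 in WT (difference -0.44), and on 1425206_a_at it was 30, 69 and 14 in DKO, against 49, 52 and 35 in WT (difference -0.54). DKO replicate 3 was the lowest array on both, and without it the differences were 0.063 and 0.026. On 1431224_at the intensity was 47, 42 and 34 in DKO, against 54, 50 and 35 in WT (difference -0.16).

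**Figure D3:**
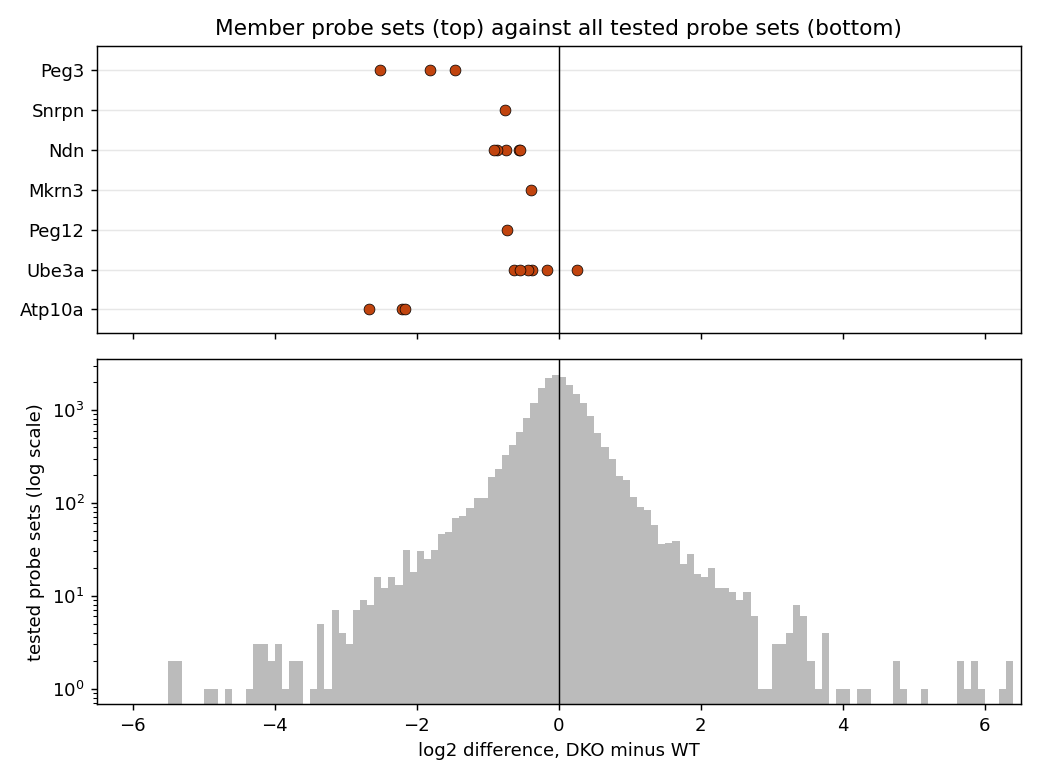
Top, log2 differences (DKO minus WT) of the tested probe sets by gene, 1 point per probe set; bottom, the number of tested probe sets (log scale) by log2 difference in bins of 0.1. Of the 20 probe sets 19 lie left of 0, with Peg3 and Atp10a between -2.67 and -1.46, where all tested probe sets have a median of -0.02. Of the 20, 3 passed the filter through the WT arrays alone.

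Same-numbered arrays were also set against each other without a test. The DKO array was lower than the WT array of the same number in 19 of the 20 probe sets for replicate 1, 16 for replicate 2 and 20 for replicate 3. It was lower in all 3 pairs in 16 of the 20, or 80%, compared with 22.4% of all tested probe sets. Those lower in all 3 pairs include the 3 probe sets that passed the filter through the WT arrays alone, where this order was built in. Several of the 20 also read the same gene. The median difference of the 20 was -0.75 within replicates 1 and 2 and -0.83 within replicate 3.

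Genes around both domains were read in chromosome order. The order of genes was taken from RefSeq, and the 8 tested genes on each side of each domain were read on their brightest probe set, a choice made after results were known. Around Peg3, 1 of 16 flanking genes was called, Epp13, named after its values were seen, which rose (log2 difference 2.75, adjusted p = 0.0027). Among all tested genes 1.64% rose and 2.5% fell. The flanking zinc-finger genes and the immediate tested neighbours of Peg3, Zfp28 (log2 difference 0.18) and Aurkc, a meiotic Aurora kinase (1.12, adjusted p = 0.224), did not pass. Around and within the Snrpn-Ube3a domain, 1 of 17 genes outside the 10 was called, the nicotinic receptor subunit gene Chrna7, the next tested gene beyond Peg12. It fell by 1.83 on the log2 scale (adjusted p = 0.0102; not without DKO replicate 1 or WT replicate 2, highest 0.0608). Herc2, the next tested gene beyond Atp10a, had a difference of 0.31 (adjusted p = 0.708). Nipa1 and Trpm1, also named after their values were seen, were higher in DKO on every array but did not pass (log2 differences 1.20 and 3.04, adjusted p = 0.057 and 0.0896). With the replicate block the limma adjusted p was 0.0157 for Nipa1 and 0.000495 for Chrna7. The median difference of the flanking genes was 0.08 around Peg3. Over the 17 genes around and within the Snrpn-Ube3a domain, which include Snhg14, it was 0.21.

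**Figure D4:**
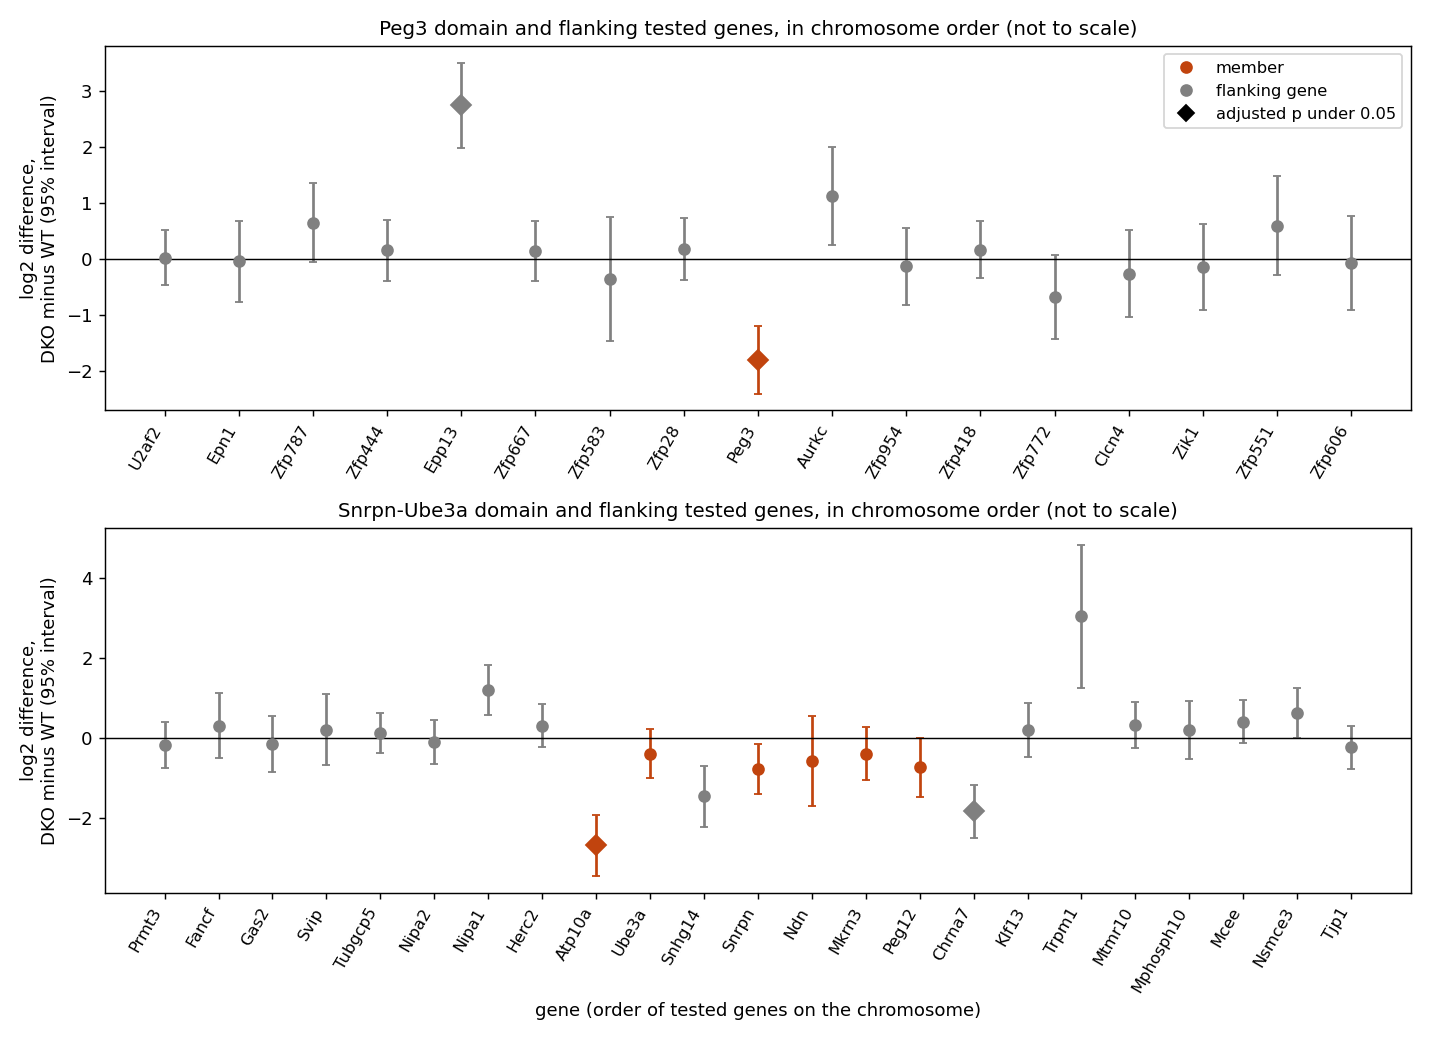
Log2 difference, DKO minus WT (y axis, with 95% interval), of tested genes in chromosome order, not to scale, around the Peg3 domain (top) and the Snrpn-Ube3a domain (bottom); coloured points are among the 10 genes and diamonds passed an adjusted p of 0.05. Peg3 stands at -1.81 among flanking genes of which Epp13 alone passed, and the genes from Atp10a to Chrna7 all lie below 0.

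Lists of the domains' neighbours were also counted. Of 4 tested genes on the list of the Peg3 domain (Aurkc, Clcn4, Zfp418 and Zfp606) limma called 0, with 1 at an unadjusted p under 0.05 and 0 with the replicate block; Zim2 and Zim3 were under the filter on every array. Of 11 tested genes on the list of the Snrpn-Ube3a domain 1 fell, Chrna7, 0 rose and 10 did not pass. Their median log2 difference was 0.13. Of these 11, 5 had an unadjusted p under 0.05, and with the replicate block 2 fell and 1 rose. Among all tested genes 2.5% fell, 1.64% rose and 14.7% had an unadjusted p under 0.05. With the block, 5.63% of all tested genes fell and 5.07% rose. The noncoding Ipw and the GABA receptor genes Gabra5 and Gabrg3 were under the filter on every array.

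Imprints are written and kept by DNA methyltransferases and proteins that guard methylated copies. Of 21 tested genes on this list 1 fell, 0 rose and 20 did not pass, with 16 of 21 below 0, 4 at an unadjusted p under 0.05, and 2 lower with the block. The median log2 difference was -0.17, against -0.0025 over all tested genes, of which 2.5% fell. Dnmt3a, a de novo DNA methyltransferase, read 9.53 ± 0.26 in DKO and 11.20 ± 0.40 in WT (SD of log2 intensity, n = 3 each; difference -1.67, limma adjusted p = 0.0142). This call, on its brightest probe set, was lost without DKO replicate 1 or WT replicate 2 (highest adjusted p = 0.0709). Of the 5 tested probe sets of Dnmt3a 2 fell, with log2 differences of -2.62 to -0.90 over the 5. Dppa3, which protects methylation in the early embryo and was named after its values were seen, was lower on every DKO array (log2 difference -1.33, adjusted p = 0.171, or 0.00297 with the block). Zfp57, which binds methylated imprinted control regions, and its partner Trim28 both had differences of 0.21 (adjusted p = 0.836 and 0.906).

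Relatives of the 10 genes by function were also read. Of 10 tested Sm and related spliceosome proteins, the family of Snrpn, limma called 0, with 0 at an unadjusted p under 0.05 and 0 with the replicate block, and the median log2 difference was 0.01. Of 14 tested MAGE family genes and partners it called 0, with 1 at an unadjusted p under 0.05 and 0 with the block (median -0.04). Of 9 tested P4-ATPase flippases and subunits other than Atp10a it called 0, with 2 at an unadjusted p under 0.05 and 1, higher in DKO, with the block (median -0.11). Of the 4 makorin and Frat relatives it called 0, with 0 at an unadjusted p under 0.05 and 0 with the block (median -0.24).

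Over the 6 arrays, the tested genes whose log2 values followed a member most closely were found by Pearson's r among 10158 genes. This is a description: r takes in both the genotype difference and the variation among arrays of a genotype, and the share of each was not tested. The genes nearest Peg3 had log2 differences of -3.64 to -1.20, and those nearest Ndn of -0.65 to -0.10. For Peg3 they were Fam126a (r = 0.998), Tagln, Dysf, Wls and Actc1 (r = 0.99), and for Atp10a they were Aif1l (r = 0.998), Efcab2, Gbp7, Ncam1 and Tcf15 (r = 0.994). For Snrpn they were Celsr2 (r = 0.992), Rprm, Mef2d, Rspry1 and Asxl3. For Ndn they were Mmp2 (r = 0.99), Slc7a3, Tom1, Tcim and Adam17, and for Ube3a Pcdh8 (r = 0.989), Pkn2, Limch1, Frmd5 and Spred2.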

How the data were processed

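Per the labels, total RNA from 3 DKO and 3 WT samples was amplified, biotin-labelled and hybridised. The authors deposited 1 whole-number intensity per probe set and array; its scale is not stated and was taken as linear. Per the submitters' processing notes the tools were GCRMA 2.14.1, limma 2.16.5, R 2.8.0 and GCOS, with no roles given; a genome build was not given in the sources used here. Median intensities were 10 to 11, rounding makes low values coarse, there are no detection flags, and the number of arrays limits the precision.

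Values were taken to log2 without a pseudocount. Probe sets at log2 4 or above on at least 3 of 6 arrays, without 64 controls, were fitted by limma 3.58.1 in R 4.3.3 (lmFit, eBayes, two-sided, threshold 0.05). Genes were counted on their brightest tested probe set (10496 genes). A genotype with all 3 arrays under the filter has only a limit, and "at least" folds compare the other genotype's mean with the filter. Of 45101 probe sets, 34958 had 1 gene, 932 several and 9211 none; names were updated to RefSeq for 34754.

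The 10 genes, the lists and the alternatives were chosen with earlier results of these data known. All 10 genes and their probe sets are named; of each list, at most 3 members that passed are named, and other genes were named after their values were seen. Same-numbered arrays deviated together (r = 0.427, 0.354 and 0.595; unlike numbers -0.488 to 0.113), so the numbers pair the samples by the rule used; what a number marks is not labelled. No arrays were alike: at most 1.79% of tested probe sets had equal values on any 2. The procedure was tested on simulated data.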

Additional observations from a re-analysis of the deposited data

How the results depend on the processing

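Counts of calls among the 20 tested probe sets of the 10 genes were 6 by limma, 9 with the replicate block, 6 with replicate 3 against replicates 1 and 2 as a block, 5 within replicates 1 and 2, and 4 to 6 when 1 array was left out. All 6 calls were among the 9. The count was 2 without a filter on dim probe sets, both of Atp10a, so that Peg3 had no call (adjusted p = 0.0517, 0.107 and 0.117). It was 2 with the stricter filter at log2 6 (Peg3 1433924_at and Atp10a 1447851_x_at), under which only 12 of the 30 probe sets were tested, and 0 with the linear model without moderation, which had 8 at an unadjusted p under 0.05. Over all tested probe sets 675 passed, 1995 with the replicate block, 1117 with replicate 3 as a block, 440 within replicates 1 and 2, 373 with the stricter filter, 31 without moderation, and 290 to 604 when 1 array was left out. Quantile normalization, median centring, the intensity trend and array weights each left the 6 calls in place, and a pseudocount of 16 or a floor at 16 left 5, without Peg3 1417355_at. Averaging the probe sets of a gene called 2 genes, as did the brightest probe set. With 1 array left out, the difference of Ube3a 1416681_at ranged from -0.90 to 0.063 and that of 1425206_a_at from -1.12 to 0.026, both changing sign without DKO replicate 3; the cause was not tested. Of 352 single-probe-set results under alternatives, 328 kept their direction and side of the threshold, 19 no longer passed, 3 newly passed, all with the replicate block, and 2 reversed. Values near an intensity of 16 limit Snrpn, Atp10a and the dimmer Peg3 probe sets.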
